A study of Mus musculus with 3 samples.

Results

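Collagens and the proteins that fold, trim and cross-link them were followed through fusion of the mouse secondary palate. Members were chosen by name: genes of the pattern Col, number, a, number, and the genes Lox, Loxl1, P4ha1, P4ha2, Plod1, Plod2, Serpinh1, Bmp1, Pcolce and Sparc, each through probe sets that name 1 gene. The rule found 39 of the 8251 genes measured, through 55 of 10833 such probe sets. Of these genes, 31 encode collagen chains and 8 act in folding, processing or binding. Plod1 and Plod2 matched no probe set that names 1 gene and were not analysed here.

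The samples were medial edge epithelium, the cell layer on the tips of the palatal shelves, from CF-1 mouse embryos of stage ED13.5, where ED is the embryonic day. The 0 h sample was unfused and not cultured. The 12 h sample was fused and the 24 h sample was fused and undergoing epithelial-mesenchymal transformation, and in both the shelves had been kept together in culture since first contact. All 3 samples were separated with the protease Dispase II, and their RNA was amplified before hybridization to 1-colour Affymetrix arrays. Each time point had 1 array and there were no replicates, so ratios below carry no error or p-value, and fusion and time in culture cannot be told apart. The sources used here do not say how many embryos were pooled.

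Collagens are trimers of chains that share a repeated glycine motif. In the endoplasmic reticulum prolyl and lysyl hydroxylases modify the chains and the chaperone encoded by Serpinh1 binds the folded trimer. Outside the cell proteinases trim procollagens, fibrils assemble, and lysyl oxidases cross-link them. Fibrillar collagens of types I, III and V are known as products of mesenchyme. Types IV, VII, XVII and XVIII belong to the basement membrane zone, which is broken down when the palatal seam is removed.

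Signals are the deposited intensities, rescaled so that the arrays have the same trimmed mean. Values under a floor, a scaled signal of 13.53, were set to it, and a ratio against the floor is a bound, written "at least". Where a gene had several probe sets the brightest on average stands for it, and a gene is counted as different at 2-fold or more. That average is over the same 3 arrays, so the signals compared also take part in the choice of probe set. The trimmed means before scaling ranged from 46.8 to 93.7. Of 8251 genes, 5878, 5405 and 5742 exceeded the floor at 0, 12 and 24 h. The spread of log2 ratios between probe sets of 1 gene, over all genes with several, was an SD of 1.24 for 12 h over 0 h, 0.82 for 24 h over 12 h and 1.07 for 24 h over 0 h, so a difference of 2-fold, a log2 ratio of 1, is within 1 SD in the first and the last of these. Control 3' to 5' signal ratios moved with the samples. They were 0.828, 14.9 and 12.6 for Gapdh and 1.02, 11.9 and 2.97 for Actb at 0, 12 and 24 h. Their part in the results was not tested.

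The label of the tissue was set against marker genes. Of 25 epithelial markers on the array, 21, 15 and 20 exceeded the floor at 0, 12 and 24 h, among them Cdh1, Krt8 and Trp63 at every time. Krt5, Krt14, Krt15 and Pkp3, markers of basal or stratified epithelium, were at the floor on all 3 arrays. Of 25 markers of palate mesenchyme, 22, 21 and 22 were above the floor, so RNA typical of mesenchyme was present before culture as well. The summed scaled signal of the mesenchyme list was 5156, 5202 and 5383 and that of the epithelial list 1886, 3688 and 4037 at 0, 12 and 24 h. Their part in the collagen signals was not tested. In such bulk samples fewer cells of a type and less RNA per cell cannot be told apart.

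Of the 39 members, 29 were above the floor on all 3 arrays, 2 on 2 arrays, 2 on 1 array and 6 on none. Those on none were Col2a1, the main collagen of cartilage, Col10a1 of hypertrophic cartilage, Col4a3 and Col4a5 of specialised basement membranes, and the fibril-associated Col19a1 and Col22a1. Of 6 cartilage markers Matn1, Matn3 and Sox5 were also at the floor throughout. The others exceeded it on some arrays, Sox6 at 0 h, Hapln1 at 12 and 24 h and Acan at 24 h.

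**Figure D1:**
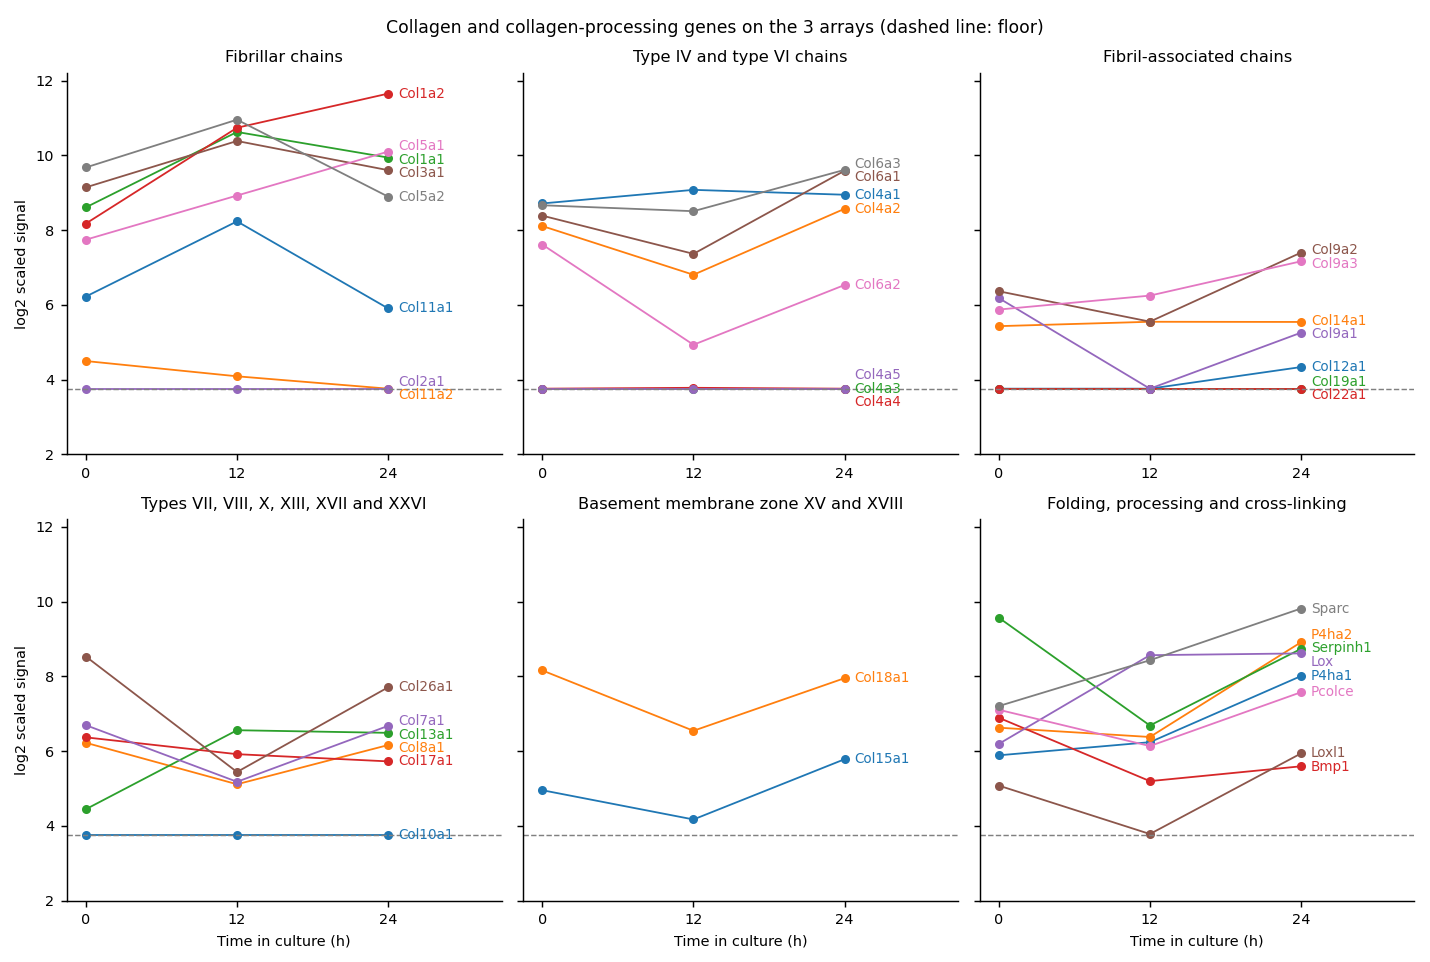
Scaled signal of each member gene (log2, vertical axis) at 0, 12 and 24 h in culture, 1 array per time, in panels by kind of protein; values under the floor lie on the dashed line. Col1a1, Col1a2, Col3a1, Col5a1, Col5a2 and Col11a1 were higher at 12 h than at 0 h, whereas 16 lines, all in the other panels, have their lowest point at 12 h.

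The fibril-forming chains were higher once the shelves had fused. At 12 h 6 of the 7 fibrillar genes with a ratio were at least 2-fold higher than at 0 h and none was 2-fold lower. The count uses the brightest set of each gene. The other probe sets of Col1a1, Col1a2 and Col5a1 did not reach 2-fold upward, with log2 ratios of 0.10, -1.21 and -0.53. Of all genes, 17.7% reached 2-fold upward and 27.3% downward in the same comparison. The median log2 ratio was 1.28 for fibrillar genes and -0.21 for all genes. The fibrillar median was also above that of all genes with the deposited values (0.57 and -0.83), with median-centred values (1.71 and 0.18) and with quantile-normalized values (0.84 and 0.07), although 3 of 8 fibrillar genes then reached 2-fold upward with the deposited values, against 9.06% of all genes, and 3 of 8 with quantile-normalized ones, against 21.9%. The list of palate mesenchyme markers, known to share cells with these collagens, had 5 of 25 members at 2-fold or more upward and 7 downward, near the shares of all genes, with a median of 0.03, and its part was not tested.

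Col1a2, a chain of type I collagen, had scaled signals of 289, 1711 and 3224 at 0, 12 and 24 h, the order used for all signals below. It was thus lowest before culture and highest at the end, with 5.91-fold its 0 h signal at 12 h and 11.1-fold at 24 h. Its other probe set gave 228, 98.9 and 180.3, which is lower at 12 h, with a log2 ratio of -1.21. Col1a1, which encodes the partner chain of the type I trimer, had 391, 1582 and 984, a 4.05-fold higher signal at 12 h and a 2.52-fold higher one at 24 h than at 0 h. The other Col1a1 probe set gave 514, 550.3 and 1486. It was the brighter set at 0 and 24 h, so the 12 h signal decided which set stands for Col1a1. Both sets were higher at 24 h than at 0 h, by 2.52-fold and 2.89-fold, but only the brighter set was different at 12 h, so the time of the higher level depends on the probe set.

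Col3a1, the chain of type III collagen that mixes with type I in soft tissue, had 566, 1339 and 779. All 3 of its probe sets were highest at 12 h, with log2 ratios over 0 h of 1.24, 2.39 and 1.25. Between 12 and 24 h all 3 were lower, with log2 ratios of -0.78, -0.81 and -2.32, whereas 24 h over 0 h gave 0.46, 1.58 and -1.07 and so no common sign.

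The types V and XI nucleate fibrils and set their width. Col5a2 had signals of 819, 1988 and 477 and Col11a1 had 74.7, 301 and 59.9. Both were highest at 12 h, by 2.43-fold and 4.03-fold over 0 h, and were 4.17-fold and 5.03-fold lower at 24 h than at 12 h. Col5a1 went on to a higher level instead, at 215, 487 and 1099.5, or 5.12-fold higher at 24 h than at 0 h. Its second probe set gave 123, 85.2 and 103.8 and did not repeat this. Col11a2 lay near the floor, at 22.6, 17.0 and 5.83, and was the fibrillar gene without a higher signal at 12 h. With the mean over all probe sets of a gene in place of the brightest, 4 of 7 fibrillar genes were at 12 h 2-fold or more above 0 h. The share of all genes was then 14.1%.

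**Figure D2:**
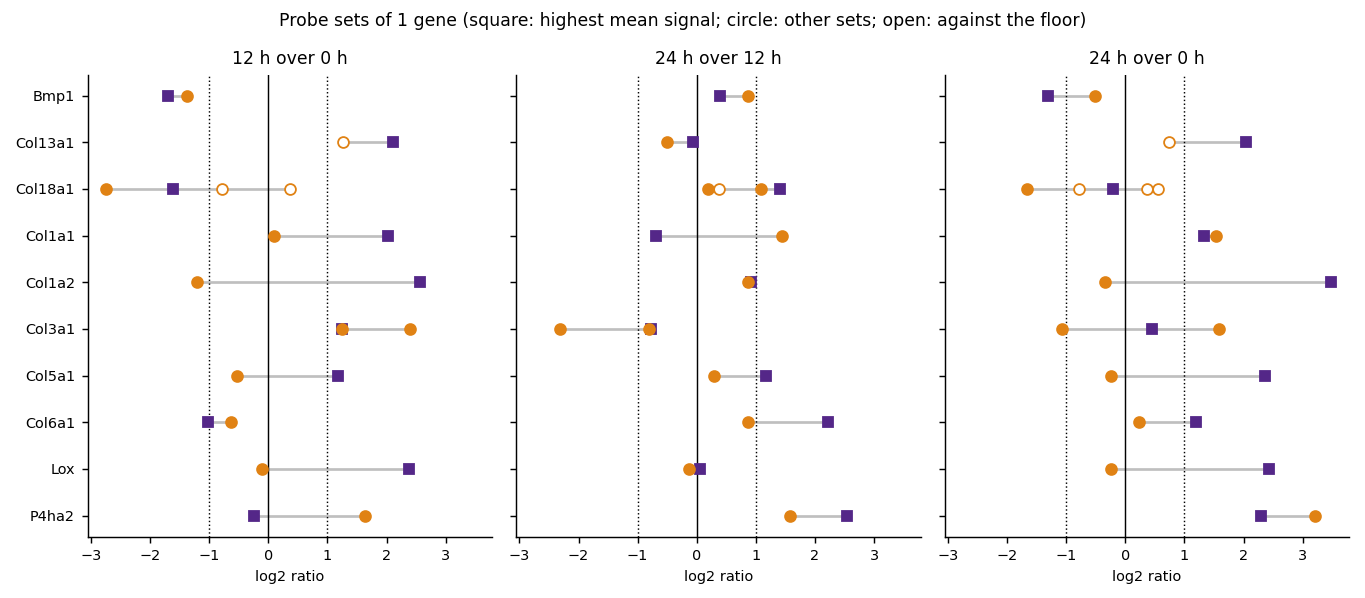
log2 ratios of the single probe sets for genes with several measured sets; squares are the set of highest mean signal, circles the others, open symbols ratios against the floor. The sets of Col1a2, Col5a1 and Lox lie on both sides of 0 in the comparisons of 12 h and 24 h with 0 h, whereas those of Bmp1, Col6a1 and Col13a1 lie on 1 side in every comparison.

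Agreement between probe sets was also counted over the members. Of 9 genes with several measured sets, 5 had 1 sign for 12 h over 0 h, 8 of 10 for 24 h over 12 h and 5 of 9 for 24 h over 0 h. Those with both signs were Col1a2, Col5a1, Lox and P4ha2 in the first comparison, Col1a1 and Lox in the second, and Col1a2, Col3a1, Col5a1 and Lox in the last.

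The other collagens were more often lower at 12 h. Of 17 chains outside the fibrillar class, 8 (47.1%) were at least 2-fold lower than at 0 h, against 27.3% of all genes, and 1, Col13a1, was 2-fold or more above 0 h. With median-centred values 5 (29.4%) were lower, against 18.4% of all genes. The median log2 ratio of these chains was -0.81. That median was below the one of all genes under the other scalings as well, with differences from it of -0.66 for deposited, -0.55 for median-centred and -0.52 for quantile-normalized values. The mesenchyme markers, with the median of 0.03 given above, went both ways: Mfap2, Prrx2 and Twist2 had log2 ratios of -5.24, -4.32 and -3.59, whereas Ogn had 2.29 and Dpt, at the floor at 0 h, was at least 6.44-fold higher. Their part in the collagen signals was not tested.

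Type VI collagen forms beaded microfibrils from chains of Col6a1, Col6a2 and Col6a3. Col6a2 had signals of 195.9, 30.5 and 92.6 and was 6.41-fold lower at 12 h than at 0 h. Col6a1 had 335, 165 and 771, and Col6a3 had 406, 364 and 784. Each of these genes was lowest at 12 h, and at 24 h Col6a1, Col6a2 and Col6a3 exceeded their 12 h signals 4.67-fold, 3.03-fold and 2.15-fold. At 24 h Col6a1 stood 2.30-fold above its 0 h signal and Col6a2 2.12-fold below. The second probe set of Col6a1 gave 76.4, 49.3 and 89.7, also lowest at 12 h. At 24 h that set was 1.82-fold above 12 h and 1.17-fold above 0 h. By their brightest sets the chains of this trimer had no common ratio to 0 h, but the size for Col6a1 depends on the probe set.

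The type IV chains of the common basement membrane also parted. Col4a1 had 420.2, 541 and 494 and stayed within 1.29-fold of its 0 h signal. Col4a2, the other chain of the same trimer, had 276, 112 and 381 and was 2.47-fold lower at 12 h than at 0 h and 3.40-fold higher at 24 h than at 12 h. Col4a4 lay at or just above the floor. Col4a1 and Col4a2 are read in opposite directions from 1 region, and their starts in RefSeq (GRCm38.p6) overlap over 22 bases. That stretch, chr8:11312805-11312826, is shown because both measured genes begin in it, on the forward strand: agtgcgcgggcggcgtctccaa

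Other collagens of the basement membrane zone and transmembrane collagens were measured as well. Col7a1, of the anchoring fibrils that hold epithelium to its stroma, had 103, 36.2 and 102, with 12 h the low sample and 0 and 24 h close together. Col17a1, the transmembrane collagen of hemidesmosomes, had 82.6, 60.4 and 52.9 and stayed within 2-fold. Col18a1, the source of endostatin in basement membranes, had 286, 93.3 and 248 by its brightest set, 3.06-fold lower at 12 h. A second measured set was 6.69-fold lower, with a 12 h signal of 13.7, just above the floor. Of the remaining 3 sets of Col18a1, all near the floor, 2 gave ratios against the floor, with log2 values of -0.79 and 0.36. Col15a1, its relative in the basement membrane zone, had 31.0, 18.0 and 55.0. Col13a1, a transmembrane collagen of cell-matrix adhesions, went the other way at 21.8, 94.2 and 89.7, so that both cultured samples were over 4-fold above 0 h, at 4.33-fold and 4.12-fold. Its second set was at the floor at 0 h and was higher by at least 2.39-fold at 12 h and 1.67-fold at 24 h. Both Col13a1 sets carry a suffix for possible cross-hybridization. With such sets left out Col13a1 had no ratio, and 0 of 16 chains outside the fibrillar class were 2-fold or more higher at 12 h than at 0 h.

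Col26a1, a secreted collagen with an EMI domain, had the lowest 12 h over 0 h ratio measured among the members. Its signals were 369.8, 43.4 and 209, or 8.52-fold lower at 12 h than before culture and 4.82-fold higher at 24 h than at 12 h. Col8a1, a short-chain collagen of network-forming type, had 74.7, 34.6 and 71.6.

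The fibril-associated collagens, which sit on the surface of fibrils, had no common course. Col9a1 had 72.6 at 0 h, lay under the floor at 12 h, a signal at least 5.37-fold lower, and had 38.2 at 24 h. Col9a2 and Col9a3, its partners in type IX collagen, had 82.4, 46.9 and 169, and 58.7, 76.0 and 144. At 24 h Col9a2 and Col9a3 were 2.05-fold and 2.45-fold higher than at 0 h and Col9a1 1.90-fold lower. Col14a1 was level, at 43.1, 46.8 and 46.6, and Col12a1 reached 20.2 at 24 h from the floor.

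**Figure D3:**
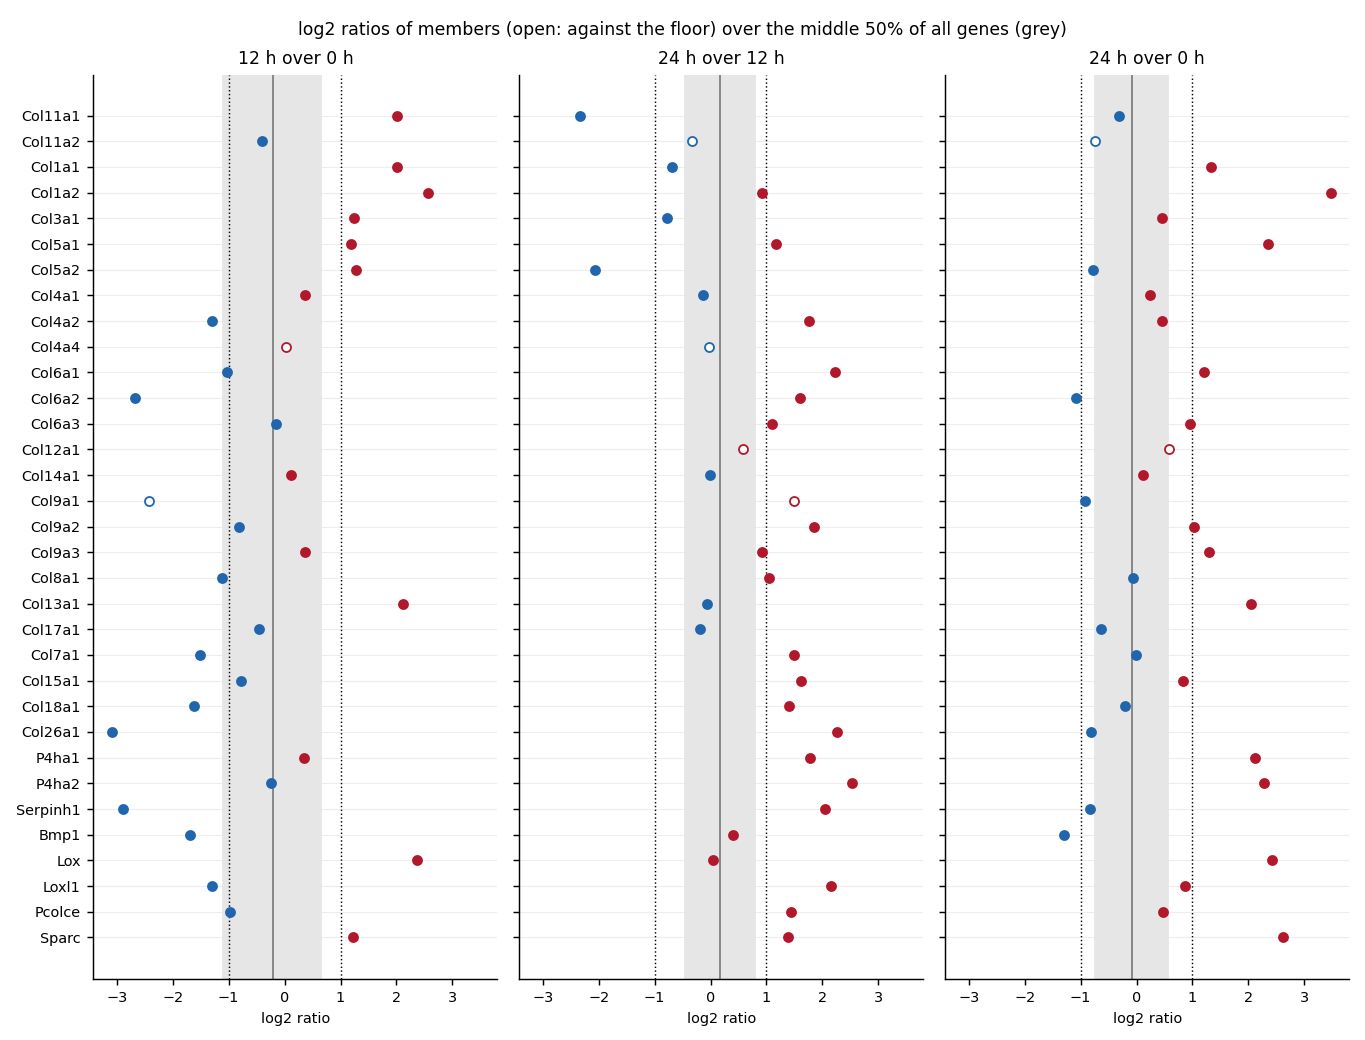
log2 ratios of the 33 members measured on at least 1 array (rows) in the 3 comparisons; open circles are ratios against the floor, the grey band spans the quartiles of all genes and the grey line is their median, and dotted lines mark 2-fold. In the middle panel 18 of 33 members lie at or beyond the right dotted line and 2, Col5a2 and Col11a1, beyond the left one.

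Between 12 and 24 h collagen genes were more often higher. Of 33 members with a ratio 18, or 54.5%, were at least 2-fold higher at 24 h, against a background of 18.8% of all genes, and 2 members were at least 2-fold lower, against 12.0%. The median log2 ratio was 1.11 for members and 0.17 for all genes. These medians were 0.83 and -0.12 for deposited, 0.79 and -0.09 for median-centred, and 1.20 and 0.01 for quantile-normalized values. By kind, 11 of 18 chains outside the fibrillar class, 6 of 8 processing genes and 1 of 7 fibrillar chains, Col5a1, were at least 2-fold higher. This comparison and that of 12 h with 0 h share the 12 h array, so a low signal on it enters both with opposite sign. Of 29 members above the floor on all arrays 15, or 51.7%, were lowest at 12 h, as were 41.9% of 4682 such genes in all.

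All 8 processing genes had a higher signal at 24 h than at 12 h, as did 3512 of 6141 genes in all. Of the 8, 6 were higher by 2-fold or more, against 18.8% of all genes, whereas Lox was level at 1.03-fold. With deposited and with median-centred values 7 were higher and Lox was lower, with log2 ratios of -0.27 and -0.24. The 8 genes had no common direction against 0 h. P4ha1 and P4ha2 encode alternative catalytic subunits of prolyl hydroxylase, which needs oxygen. P4ha1 had signals of 59.2, 75.5 and 257, and P4ha2 had 98.8, 83.1 and 482. Both were similar at 0 and 12 h and high at 24 h, by 3.41-fold and 5.80-fold over 12 h and by 4.35-fold and 4.88-fold over 0 h. The second probe set of P4ha2 gave 37.7, 117 and 347, also highest at 24 h but 3.10-fold higher at 12 h than at 0 h.

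Serpinh1, the collagen chaperone, was high before culture. Its signals were 760.3, 103 and 427. The 12 h sample was 7.39-fold below the 0 h sample, and the 24 h sample was 4.15-fold above 12 h and 1.78-fold below 0 h.

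The sequences just before the starts of Col1a2, P4ha1, P4ha2 and Serpinh1 are shown as examples of a fibrillar chain, prolyl hydroxylase subunits and the chaperone. They are the 250 bases before each start in RefSeq (GRCm38.p6), 5' to 3' on the strand of the gene. Capitals mark matches on either strand to ACGTG and GCGTG, the core letters of hypoxia response elements, CCAAT, the GC box GGGCGG, the TATA box letters TATAAA, and GAANNTTC, a core of heat shock elements.
Col1a2 (chr6:4505368-4505617, forward strand): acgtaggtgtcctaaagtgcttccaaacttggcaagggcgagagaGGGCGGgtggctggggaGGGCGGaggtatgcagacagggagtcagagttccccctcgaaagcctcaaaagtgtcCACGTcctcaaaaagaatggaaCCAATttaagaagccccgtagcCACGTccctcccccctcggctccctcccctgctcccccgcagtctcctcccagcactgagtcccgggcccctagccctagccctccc
P4ha1 (chr10:59323046-59323295, forward strand): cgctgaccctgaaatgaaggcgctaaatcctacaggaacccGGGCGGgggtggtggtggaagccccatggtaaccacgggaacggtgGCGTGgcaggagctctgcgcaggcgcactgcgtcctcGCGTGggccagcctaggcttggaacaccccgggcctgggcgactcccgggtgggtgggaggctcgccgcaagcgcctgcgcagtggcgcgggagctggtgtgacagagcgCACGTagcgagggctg
P4ha2 (chr11:54100674-54100923, forward strand): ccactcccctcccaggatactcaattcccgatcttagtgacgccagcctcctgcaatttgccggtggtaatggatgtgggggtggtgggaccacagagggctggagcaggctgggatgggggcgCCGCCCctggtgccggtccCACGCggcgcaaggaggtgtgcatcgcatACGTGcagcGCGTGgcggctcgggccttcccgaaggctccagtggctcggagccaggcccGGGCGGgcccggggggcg
Serpinh1 (chr7:99353240-99353489, reverse strand): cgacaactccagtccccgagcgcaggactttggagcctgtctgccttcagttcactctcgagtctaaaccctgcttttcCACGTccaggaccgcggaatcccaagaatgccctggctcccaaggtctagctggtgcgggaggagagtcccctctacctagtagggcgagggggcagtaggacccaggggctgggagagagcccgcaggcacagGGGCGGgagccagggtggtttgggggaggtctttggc

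P4ha1 and P4ha2 each held both ACGTG and GCGTG in this stretch. In P4ha2 ACGTG began at position -78 from the start and GCGTG at -69, on the strand of the gene. In P4ha1 the reverse complement of ACGTG began at -16 and GCGTG at -163 and -126. Col1a2 and Serpinh1 held ACGTG without GCGTG. Both letter groups occurred together in 6.13% of 32851 such windows of mouse genes. An entry existed for 27 of the 39 members, with 30 windows, and 3 of these, of Col11a2, P4ha1 and P4ha2, held both. ACGTG, with or without GCGTG, was in 7 member windows (23.3%, against 16.6% of all windows), GCGTG in 8 (26.7% against 28.2%), CCAAT in 9 (30.0% against 33.9%), GGGCGG in 16 (53.3% against 32.7%), TATAAA in 5 (16.7% against 12.4%) and GAANNTTC in 1 (3.33% against 6.69%). Letters of these motifs can overlap one another, and a match is a description of the sequence.

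Outside the cell, Bmp1, the proteinase that removes the carboxyl propeptide of fibrillar procollagens, had 119, 36.7 and 48.3. It was 3.24-fold lower at 12 h and 2.46-fold lower at 24 h than at 0 h, and its second probe set, at 81.1, 31.2 and 56.7, was lower at both times as well. Pcolce, which enhances that cleavage, had 138, 70.2 and 191, with its low sample at 12 h. Lox and Loxl1 are lysyl oxidases that start cross-links. Lox had 73.1, 379 and 392, with both cultured samples 5.19-fold and 5.36-fold above 0 h, but its dimmer second set was level at 21.4, 20.0 and 18.2. Loxl1 had 33.7, 13.7 and 61.3, the middle value being just above the floor. Sparc, a secreted protein that binds collagen and assists its deposition, had 147, 345 and 901 and was 6.11-fold higher at 24 h than at 0 h. It was higher at each later time, with 2.34-fold at the first step and 2.61-fold at the second.

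Over the full interval from 0 to 24 h 11 of 32 members (34.4%) reached 2-fold upward and 2 (6.25%) downward, against 14.5% and 17.7% of all genes. The 11 were Col1a1, Col1a2, Col5a1, Col6a1, Col9a2, Col9a3, Col13a1, P4ha1, P4ha2, Lox and Sparc, and the lower ones Col6a2 and Bmp1. The median log2 ratio was 0.47 for members and -0.08 for all genes. For deposited values these were -0.25 and -0.98, so the sign of the members' median reversed while it stayed above that of all genes, and of 35 members 7 (20.0%) were then higher and 12 (34.3%) lower, against 4.50% and 49.3% of all genes. The other counts over all members were those of 12 h over 0 h, with 9 of 32 (28.1%) at 2-fold or more upward and 11 (34.4%) downward, against the 17.7% and 27.3% of all genes. With deposited values these were 5 and 16 of 34 (14.7% and 47.1%, against 9.06% and 44.8% of all genes). With median-centred values they were 9 and 7 of 33 (27.3% and 21.2%, against 26.2% and 18.4%), and with quantile-normalized values 6 and 9 of 33 (18.2% and 27.3%, against 21.9% and 20.9%). The members' shares in this comparison thus lay near those of all genes.

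**Figure D4:**
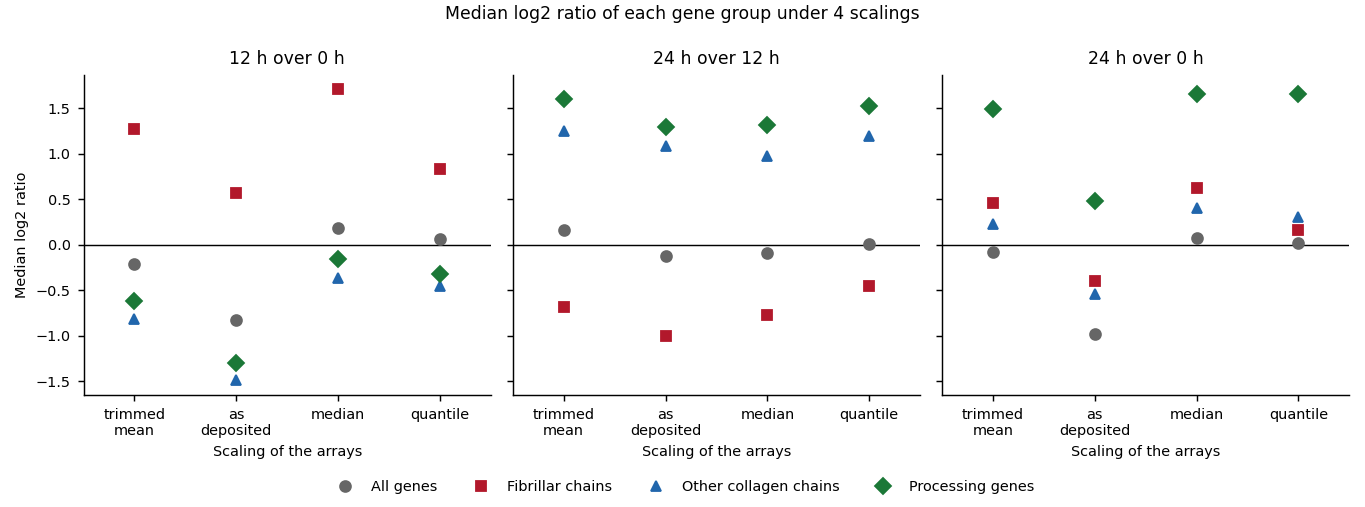
Median log2 ratio (vertical axis) of all genes, fibrillar chains, other collagen chains and processing genes under the 4 scalings of the arrays, 1 panel per comparison. In the left panel fibrillar chains lie above all genes and the other chains below under each scaling, and in the middle panel the order of fibrillar and other chains is the opposite.

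Genes that share the collagen pathway but not the naming rule were read from lists. Of 14 further genes of collagen synthesis and secretion with a ratio, 2 reached 2-fold upward and 5 downward between 0 and 12 h, against 17.7% and 27.3% of all genes. For 24 h over 12 h the counts were 4 and 1, against 18.8% and 12.0%, and for 24 h over 0 h 3 and 2, against 14.5% and 17.7%. Ppib, a prolyl isomerase of collagen folding, had 810, 158 and 161, so it was 5.11-fold lower at 12 h and, unlike Serpinh1, still 5.04-fold lower at 24 h. Crtap, a subunit of the complex in which Ppib works, had 122, 239.9 and 420.4 and was 3.46-fold higher at 24 h than at 0 h. Plod3, a lysyl hydroxylase, had 90.8, 29.8 and 69.4, and Pdia3, a disulfide isomerase, 128, 56.3 and 30.9.

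Partners of collagen fibrils had 6 of 19 members at 2-fold or more upward and 6 downward between 0 and 12 h, against 17.7% and 27.3% of all genes. At 24 h 7 of 20 were at least 2-fold higher and 1 lower than at 12 h, against 18.8% and 12.0%. Bgn, a small proteoglycan, had 287, 271 and 1540.2, and Eln, elastin, 440.2, 214 and 1216. Both were highest at 24 h, 5.67-fold above 12 h in each case. Fbln1, a matrix glycoprotein, had 458, 39.3 and 436, which is 11.7-fold lower at 12 h than before culture. Ogn, a small proteoglycan that is also in the mesenchyme list, had 85.7, 419 and 348, with both cultured samples high.

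Genes of collagen breakdown and its inhibition had 10 of 17 members that were 2-fold or more above their 0 h signal at 24 h and 0 that were 2-fold or more below it, against 14.5% and 17.7% of all genes, with a median log2 ratio of 1.08. The list also holds inhibitors of matrix proteinases, and Timp1 and Timp3, with log2 ratios of 1.30 and 1.02, are 2 of the 10, while Timp2 had -0.76. Mmp2, Mmp9 and Mmp13, also among the 10, were at the floor at 0 h. For 12 h over 0 h 6 of 17 were higher and 2 lower, against 17.7% and 27.3% of all genes. For 24 h over 12 h 4 of 15 were higher and 1 lower, against 18.8% and 12.0%, with a median log2 ratio of -0.34. Ctsk, a cathepsin that cuts fibrillar collagen, had 29.2, 62.7 and 156, and was 5.34-fold higher at 24 h than at 0 h. The related cathepsins Ctss and Ctsl had 42.0, 508 and 278, and 161.6, 1052.5 and 833. Both were highest at 12 h, and at 24 h they stood 6.61-fold and 5.15-fold above 0 h. Mmp9, a gelatinase, was at the floor at 0 h and at least 4.99-fold higher at 24 h. Macrophages are known to express several of these genes, and of 13 macrophage markers 7, 7 and 8 exceeded the floor on the 0, 12 and 24 h arrays, with Adgre1, Aif1, Fcer1g, Lyz2 and Ptprc at the floor on all arrays. Of 8 macrophage markers with a ratio for 24 h over 0 h, 2 reached 2-fold upward and 0 downward, against 14.5% and 17.7% of all genes. These 2 were Cd14, at 74.2, 73.1 and 209, and Mpeg1, at the floor at 0 h and then 94.5 and 104.5. For 12 h over 0 h 1 of 8 was higher and 2 lower, against 17.7% and 27.3%. The summed scaled signal of the 13 markers was 305, 312 and 552, and its part was not tested.

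Collagen receptors had 1 of 8 members at 2-fold or more upward and 3 downward between 0 and 12 h, against 17.7% and 27.3% of all genes. Itgb1, the shared chain of the collagen-binding integrins, had 941, 2464 and 1863. The receptor kinases Ddr1 and Ddr2 were 3.10-fold and 2.80-fold lower at 12 h than at 0 h, and at 24 h Ddr1 was 1.56-fold and Ddr2 3.60-fold lower than at 0 h. Sdc4, a syndecan, had 54.4, 17.5 and 94.1.

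Markers of other cell types were read beside the collagens. Of 6 cartilage markers on the array 1, 1 and 2 were above the floor at 0, 12 and 24 h, with summed signals of 35.6, 38.2 and 46.0. Bone markers had 2, 2 and 3 of 5 above the floor and summed signals of 109, 746 and 408. The higher sum at 12 h came from Ibsp, a bone matrix protein, which was at the floor at 0 h and 681 and 264 at 12 and 24 h. Alpl went the other way, at 53.9 and 83.9 at 0 and 24 h and at least 3.98-fold lower at 12 h than at 0 h, where it was under the floor. Dlx5 was level at 38.5, 43.2 and 49.6, and Dmp1 and Phex were at the floor throughout. Endothelial markers had 8, 9 and 8 of 10 above the floor and summed signals of 455, 674 and 747. Muscle markers had 9, 9 and 10 of 12 above it and summed signals of 735, 1012 and 810, with Myf5 at the floor on all arrays. Their part in the collagen ratios was not tested.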

How the data were processed

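Signal intensity was measured for RNA of 3 samples, with 1 array at each of 0, 12 and 24 h. The values are the intensities the submitters deposited, 1 linear signal per probe set. Per the labels, RNA was amplified with RiboAmp, labelled with the ENZO kit, and analysed with Microarray Suite 5.0 and GeneSpring 6.0; the sources used here do not state which program wrote the values or whether it scaled them. The 66 control probe sets were used for 3' to 5' ratios alone.

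Signals of 12422 probe sets were scaled to a common 2% trimmed mean (factors 0.676, 1.09 and 1.36 at 0, 12 and 24 h), floored at the pooled 40th percentile and taken to log2. Symbols came from a platform annotation, updated by gene identifier through RefSeq (10817 of 10833 matched). Python 3.11.15, numpy 2.4.6 and pandas 2.3.3 were used, and the steps were tested on simulated data. With 1 array per time no test was possible; precision is limited by the number of arrays.

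The members and lists were chosen with earlier results of these data known. Every member was named. Of each list at most 4 genes with the largest measured ratios were named with values, beside genes at the floor on some array. Cdh1, Krt8, Trp63, Timp1, Timp2, Timp3 and Mpeg1 were chosen after their values were seen. Alternatives were no rescaling, centring on the median, quantile normalization, a floor at the 60th percentile or none, the mean over probe sets, omission of suffixed probe sets, a 3-fold rule and, added after the data were seen, scaling from the 2 arrays compared.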

Additional observations from a re-analysis of the deposited data

How the results depend on the processing

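Of 53 member ratios at 2-fold or more, none changed sign under the 7 alternatives run for single genes. For most alternatives this could hardly come out otherwise, so it is no measure of precision. No rescaling and median centring move all ratios of a comparison by the same amount, apart from the floor, and another floor cannot reverse a ratio. Only quantile normalization and the changes of probe sets could readily do so. Between 42 (values as deposited) and 53 (no floor) of the ratios were still at 2-fold or more. For Col1a2 at 12 h over 0 h the log2 ratio was 0.68 with the mean over probe sets. Counts of members that moved by over 1.5 times were these. With values as deposited, 5 members were higher for 12 h over 0 h (9.06% of all genes). For 24 h over 0 h 7 were then higher (4.50%) and 12 lower (49.3%). After median centring 7 were lower for 12 h over 0 h (18.4% of all genes) and 1 for 24 h over 0 h (14.2%). In the latter comparison quantile normalization gave 4 lower (15.8%) and the mean over probe sets 1 (15.7%). Without a floor 5 were lower for 24 h over 12 h (15.1%). The shares of all genes thus moved with the setting as well. At 3-fold, 5 were higher and 6 lower for 12 h over 0 h, 10 higher for 24 h over 12 h, and 7 higher and 0 lower for 24 h over 0 h; of all genes 9.56%, 15.2%, 7.41%, 6.63% and 7.76% passed 3-fold in these directions. The median log2 ratio of members lay between -0.89 and 0.078 for 12 h over 0 h, between 0.79 and 1.20 for 24 h over 12 h and between -0.25 and 0.63 for 24 h over 0 h. It changed sign for 12 h over 0 h after median centring (0.078, from -0.33) and for 24 h over 0 h with values as deposited (-0.25, from 0.47). Scaling from 2 arrays changed no count of members by over 1.5 times. Ratios near the floor, such as those of Loxl1, Col15a1 and Col9a1, are limited by signal over background. No paired analysis was possible because each time point has 1 array.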

Other observations

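Some members lie next to each other among the protein-coding genes of RefSeq, and their values can be set side by side. Col3a1 and Col5a2, neighbours on chromosome 1, both had their highest signal at 12 h and a lower one at 24 h, with log2 ratios of -0.78 and -2.06 for 24 h over 12 h. Col6a1 and Col6a2, on chromosome 10, both had their lowest signal at 12 h, with log2 ratios over 0 h of -1.02 and -2.68. Col4a1 and Col4a2, which start within the same stretch of chromosome 8, had log2 ratios of 0.36 and -1.30 at 12 h over 0 h. The sign for Col4a1 depended on the scaling. With deposited values the 2 genes had -0.33 and -1.99, and with quantile-normalized values -0.05 and -1.26. Of the pair Col9a1 and Col19a1 on chromosome 1, Col19a1 was at the floor on all arrays, and of the pair Col4a3 and Col4a4, also there, Col4a3 was at the floor throughout.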
